A study of Rattus norvegicus with 18 samples.

Results

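These results describe 63 genes of rat intestine whose RNA level was lower in every library of irradiated rats given Changbing Formula than in every library of control rats. The genes were chosen by their measured levels. For each gene, CPM (the gene's share of all gene reads of its library, on the usual CPM scale) was computed, and a gene was taken when its mean over 18 libraries was at least 1 CPM and its highest value with formula lay below its lowest control value. Of 30562 genes in the table, 14393 reached that mean, 66 of these met the rule (0.459%), and 3 of the 66, Dbp among them, were left out by the rule together with 3 genes that did not meet it. In the opposite direction, 52 genes were higher with formula without overlap. Since the rule used the control and formula values, the separation of those groups is how the genes were selected and is given as a description.

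RNA was sequenced from intestine of wild type Sprague-Dawley rats, an outbred stock, in 3 groups of 6 libraries. Control rats had no treatment, irradiated rats had a single 10 Gy dose of X-rays, and formula rats had the same dose and then Changbing Formula, so the formula and control groups differ by both irradiation and formula. The labels give no gut segment, sex, age, time after irradiation or hour of collection, do not say whether each library is a separate rat, and give batch 1 for all; the p-values therefore measure the spread between these libraries. The free-text descriptions call all 18 samples untreated, against the titles and treatment fields of 12, and the groups follow the titles. Library totals ran from 33598572 to 48398184 counted reads.

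Dbp encodes a transcription factor of the PAR bZIP family and is a classical output gene of the circadian clock. CLOCK and BMAL1 drive its transcription, the PER and CRY proteins hold that drive back, and its RNA therefore rises and falls over the day in many tissues, the gut among them. Genes that move with Dbp across libraries are of interest for that reason, and the hour of collection, which the labels do not give, cannot be told apart from the groups.

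The table names genes by Ensembl identifier and does not pair them with symbols, and none of its identifiers was found in the reference gene table used here. Roles of the 63 genes and markers of intestinal cell types could therefore not be given, the labelled tissue was not checked against markers, and members are described by position, level and counts. Dbp is named from the description of the gene set.

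Some libraries stood apart from the others. The share of reads on mitochondrial genes was 5.77% in irradiated 4 and 39.7% in irradiated 5, with 12.8% to 27.3% in the other irradiated libraries, 9.30% to 23.3% in controls and 17.8% to 25.7% with formula. Because a CPM divides by all reads, a high mitochondrial share lowers the CPM of other genes. Control 2 and irradiated 1 carried a few genes at levels seen in no other library, 2 members among them. A member on chromosome 5 reached 93.6 CPM in control 2 and 102 CPM in irradiated 1, against at most 4.51 CPM elsewhere, and a member on chromosome 1 reached 22.1 and 36.2 CPM there, against at most 1.87 CPM elsewhere.

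Most of the 63 genes were lower with formula by a modest amount. The fold between the control and formula medians ran from 1.08 to 17.1 with a median of 1.32, beside 1.04 over all genes that average 1 CPM or more. It was at least 1.2 in 47 genes, at least 1.5 in 19, at least 2 in 7 and at least 4 in 2. The smaller of these 2 folds, 6.52, was that of the chromosome 5 member high in control 2 and irradiated 1. That member reached a mean of 1 CPM only through those libraries. Control medians spanned 1.66 to 382 CPM, so the set held scarce and abundant transcripts. In bulk tissue, fewer cells of a type and less RNA per cell cannot be told apart.

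**Figure D1:**
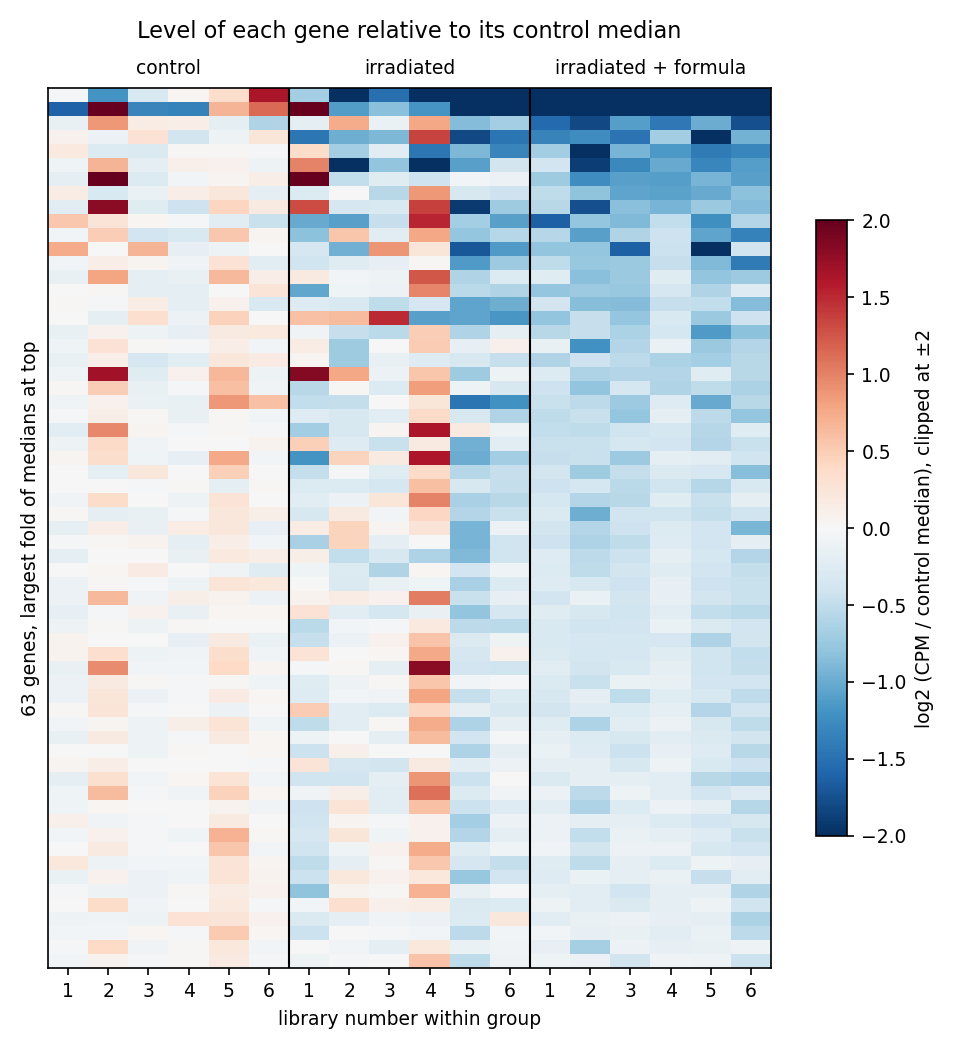
Level of each of the 63 genes (rows, largest fold of medians at the top) in each of the 18 libraries (columns), as log2 of CPM over the gene's control median, with 0.01 CPM added and colours clipped at ±2. Formula columns are lower than control columns in every row, as the rule requires, while irradiated 4 and irradiated 5 differ from each other over much of the set.

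The separation was narrow for most members. The ratio of the lowest control to the highest formula value had a median of 1.04 and was at least 1.1 in 15 genes, at least 1.2 in 6 and at least 1.5 in 1. At the edge of the rule, the 3 members closest to it had lowest control and highest formula values of 15.26 and 15.25 CPM, 30.22 and 30.18 CPM, and 349.5 and 349.0 CPM. Just outside it, 3 genes had 29.959 and 29.963 CPM, 125.96 and 126.03 CPM, and 1.2284 and 1.22996 CPM.

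Which genes belonged to the set depended on how libraries were scaled. With TMM scaling, which corrects library totals for composition, 43 genes met the rule and 24 of the 63 were among them, including the 3 with the widest separation. With mitochondrial genes taken out of the totals, 56 genes met it and 39 of the 63 were among them. Single libraries also set the edge: formula 4 held the highest formula value in 27 members, and without it 285 genes met the rule.

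The gene with the widest separation was ENSRNOG00000042717, on chromosome 2 from 183419819 to 183423313 on the reverse strand of mRatBN7.2. Control libraries ran from 5.11 to 36.6 CPM with a median of 11.8 CPM. Formula libraries ran from 0.535 to 1.52 CPM with a median of 0.689 CPM. The medians thus differed 17.1-fold, and the lowest control was 3.35 times the highest formula value. Irradiated libraries 1 to 6 measured 7.36, 2.04, 4.15, 1.04, 0.657 and 0.620 CPM. Irradiated 1 lay within the control range, irradiated 2 and 3 between the other groups, and irradiated 4, 5 and 6 within the formula range. The log2 difference of formula from control was -4.09 (SE 0.70), and that of irradiated from control was -2.55 (SE 0.65, edgeR adjusted p = 0.998). For formula against irradiated it was -1.54 (SE 0.63, edgeR adjusted p = 0.770).

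A different arrangement was seen for ENSRNOG00000055408, on chromosome 7 from 110595091 to 110601473 on the forward strand. Control libraries ran from 1.90 to 5.27 CPM with a median of 2.90 CPM, and formula libraries from 0.820 to 1.46 CPM with a median of 1.03 CPM. Irradiated libraries measured 2.53, 4.88, 2.63, 4.98, 1.59 and 1.80 CPM. All 6 irradiated values were above the highest formula value, and 4 of them were within the control range. The log2 difference was -1.45 (SE 0.27) from control to formula, -1.37 (SE 0.27) from irradiated to formula and -0.08 (SE 0.26) from control to irradiated. With edgeR the adjusted p was 0.119, 0.729 and 0.998 in that order, and with DESeq2 it was 0.000141 for formula against control and 0.000579 for formula against irradiated. DESeq2 was the only alternative with an adjusted p below 0.05 for formula against irradiated, and 27 others were not below it. For formula against control, 2 alternatives were below 0.05 and 26 were not.

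An abundant member, ENSRNOG00000046912, lies on chromosome 15 from 7524257 to 7550553 on the forward strand. Control libraries ran from 119 to 166 CPM with a median of 144 CPM, and formula libraries from 33.3 to 89.3 CPM with a median of 61.6 CPM. Irradiated libraries measured 185, 90.5, 124, 52.99, 77.8 and 57.5 CPM. Irradiated 1 was above every control and irradiated 3 within the control range, irradiated 2 fell between the groups, and the other 3 lay within the formula range. The log2 difference of formula from control was -1.14 (SE 0.30, edgeR adjusted p = 0.640). It was -0.49 (SE 0.30, edgeR adjusted p = 0.998) for irradiated against control and -0.65 (SE 0.30, edgeR adjusted p = 0.770) for formula against irradiated.

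Dbp itself, on chromosome 1 from 96175440 to 96180745 on the forward strand, is the reference for these comparisons. Its level ran from 71.2 to 238 CPM in controls with a median of 124 CPM, and from 5.23 to 14.2 CPM with formula with a median of 11.8 CPM. Irradiated libraries 1 to 6 measured 77.6, 35.5, 69.7, 39.3, 17.3 and 10.9 CPM. The irradiated libraries covered the distance between the other groups, with irradiated 1 inside the control range and irradiated 6 inside the formula range. The log2 difference was -3.76 (SE 0.47, edgeR adjusted p = 0.0029) for formula against control and -1.80 (SE 0.44, edgeR adjusted p = 0.998) for irradiated against control. For formula against irradiated it was -1.96 (SE 0.44, edgeR adjusted p = 0.770).

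**Figure D2:**
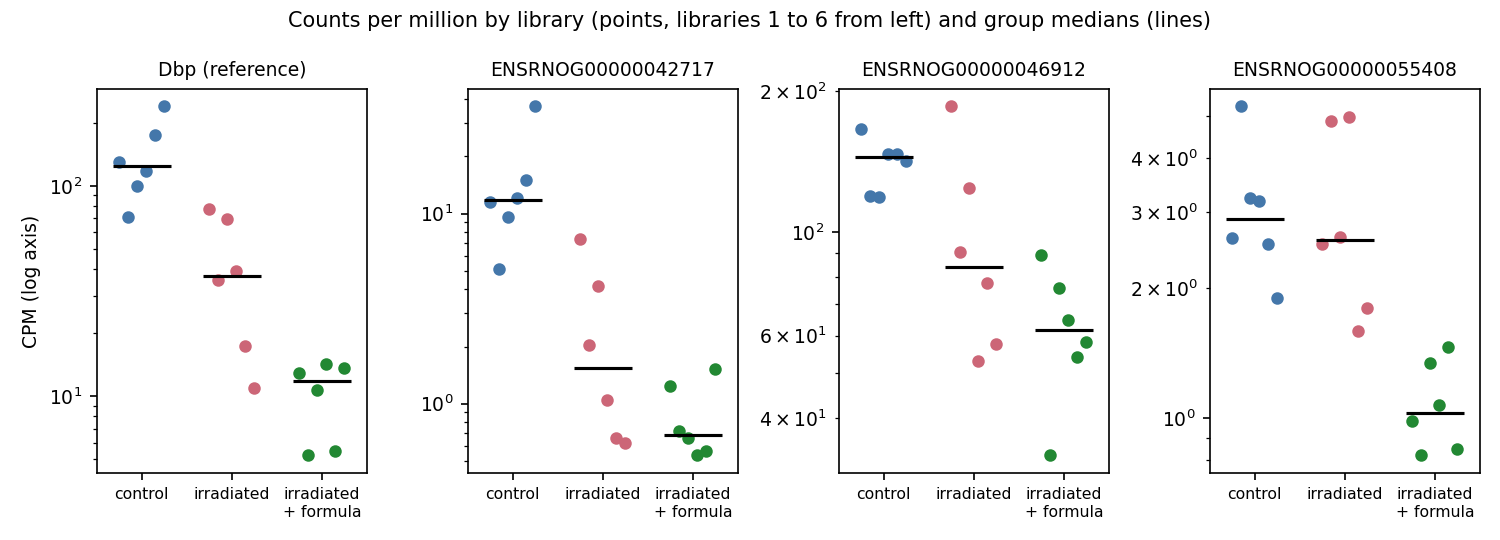
CPM (log axis) of Dbp and the 3 named members in each library, with 1 point per library and the groups side by side. In ENSRNOG00000042717 the irradiated points spread from the control range to the formula range, as in Dbp, while in ENSRNOG00000055408 all 6 lie above the formula points.

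Across all genes, edgeR's quasi-likelihood test at an adjusted p of 0.05 called 2 of 16593 genes between formula and control (0.0121%), and Dbp was 1 of them. None of the 63 genes was called. All 63 had lower fitted values with formula, which the rule fixes, with a median log2 difference of -0.43 beside -0.07 over all genes, and 46 had an unadjusted p below 0.05 (73.0%, beside 3.27% of all genes lower at that level). DESeq2 called 4 members, beside 47 of all genes (0.283%), and limma-voom with quality weights called 22, beside 499 (3.01%). The rule used this contrast, so nothing is read from these shares. ENSRNOG00000042717 had the lowest adjusted p with edgeR, 0.0897, and passed 0.05 in 8 of 28 alternatives, DESeq2 and limma-voom among them.

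The irradiated libraries entered the rule only through the mean over 18 libraries (72 genes met it with no minimum level), but the contrasts they enter share control or formula libraries with it, so members' values there are descriptions as well. Between irradiated and control rats edgeR called 0 of 16593 genes (0.0%), with 321 at an unadjusted p below 0.05, and DESeq2 and limma-voom also called 0. The fitted level was lower after irradiation in 53 of the 63 genes and higher in 10 (15.9%, beside 51.3% of all genes higher). The median log2 difference was -0.16 beside 0.01 over all genes. An unadjusted p below 0.05 was found in 8 members, all lower (12.7%, beside 1.28% of all genes lower at that level). Between formula and irradiated rats edgeR called 0 genes (0.0%), with 928 having an unadjusted p below 0.05; DESeq2 called 8, of which 1 was a member (ENSRNOG00000055408), and limma-voom 0. There, 60 of the 63 genes were lower with formula and 3 higher (4.76%, beside 47.1% of all genes higher), with a median of -0.28 beside -0.02 over all genes. In 20 members the unadjusted p was below 0.05, all lower (31.7%, beside 4.09% of all genes lower at that level).

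The irradiated median lay between the formula and control medians in 53 of the 63 genes. It was at or above the control median in 6 and at or below the formula median in 4. Among the 8078 genes whose formula median was below the control median, 35.2% had the irradiated median between, but members were picked for a wide distance between those medians, so that share is no measure of what the set would show. On the log2 scale the irradiated median had covered a median of 47.3% of the distance from control to formula, and it was nearer control in 35 genes and nearer formula in 28.

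**Figure D3:**
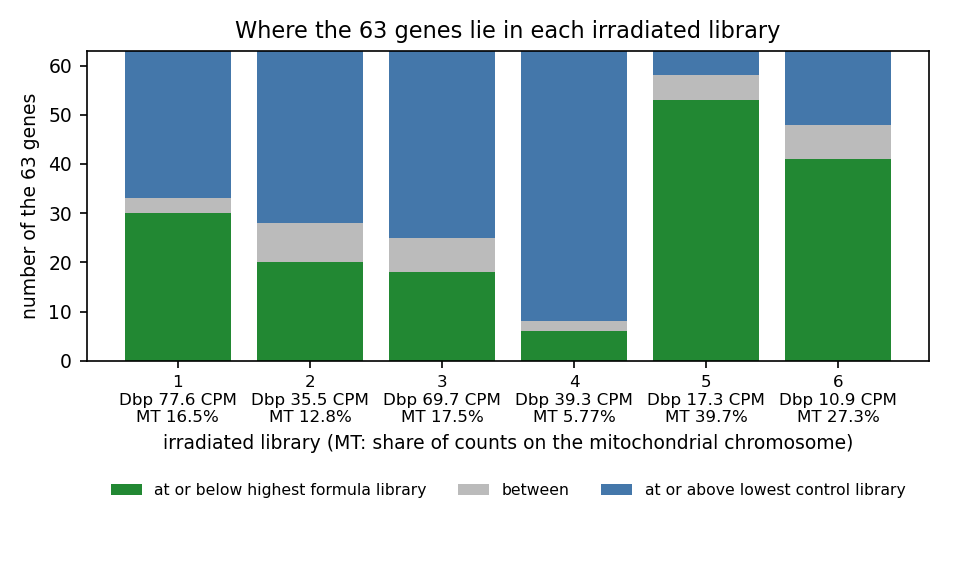
Where the 6 irradiated libraries fall for the 63 genes, counted as at or above the lowest control value, in the gap between the groups, or at or below the highest formula value. Irradiated 4 is at or above the lowest control value in 55 genes, and in 34 of these it is above the highest control value. Irradiated 5 is at or below the highest formula value in 53, and in 23 of these it is below the lowest formula value.

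Counted against the edges of the other groups, irradiated values fell on both sides. Over 378 pairs of a member and an irradiated library, 178 (47.1%) were at or above the lowest control value, 168 (44.4%) at or below the highest formula value and 32 (8.47%) in the gap. The gap is narrow in most members, so few values could fall in it, and a value midway between the medians counts as control or formula side. No member had all 6 irradiated libraries at or above the lowest control value or all 6 at or below the highest formula value, and 2 members had 0 at or below the highest formula value. Counts of 2, 3 and 4 irradiated libraries at or above the lowest control value were seen in 20, 17 and 15 members in turn.

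The irradiated libraries differed from each other in this respect. Irradiated 1 to 6 were at or above the lowest control value in 30, 35, 38, 55, 5 and 15 of the 63 genes. As shares these were 47.6%, 55.6%, 60.3%, 87.3%, 7.94% and 23.8%, beside 76.4%, 91.3%, 95.5%, 79.9%, 60.5% and 77.6% of all genes that average 1 CPM or more. Irradiated 4 thus had the highest share among members and irradiated 3 among all genes, while irradiated 5 had the lowest in both. The rule used the lowest control value of each member, so the shares of all genes are no measure of what the set would show. Irradiated 4 exceeded the highest control value in 34 of the 63 members, a larger share than the 41.5% of all genes. Irradiated 5 and 6 did so in 0 members, beside 2.84% and 6.58% of all genes. The order followed the mitochondrial share of reads in part. Irradiated 4 had the lowest share (5.77%) and the most members at or above the lowest control value. Irradiated 5 and 6 had the highest shares (39.7% and 27.3%) and the fewest such members. Dbp had another order, since irradiated 4, at 39.3 CPM, was below irradiated 1 and 3. The part of the mitochondrial share in these positions was not tested.

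Part of the library pattern was common to all genes. The members' median log2 level against the control median was -0.25, -0.10, -0.15, 0.44, -0.58 and -0.31 in irradiated 1 to 6, and that of all genes that average 1 CPM or more was -0.23, 0.19, 0.09, 0.30, -0.40 and -0.19. The members thus lay 0.30 below all genes in irradiated 2, 0.24 below in irradiated 3 and 0.14 above in irradiated 4, with the other irradiated libraries 0.03 to 0.18 below. In formula libraries the members lay 0.22 to 0.47 below all genes, which the rule fixes. The irradiated differences are taken against control medians, and the rule used the control values too. They may be shaped by the rule as well and are given as descriptions.

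**Figure D4:**
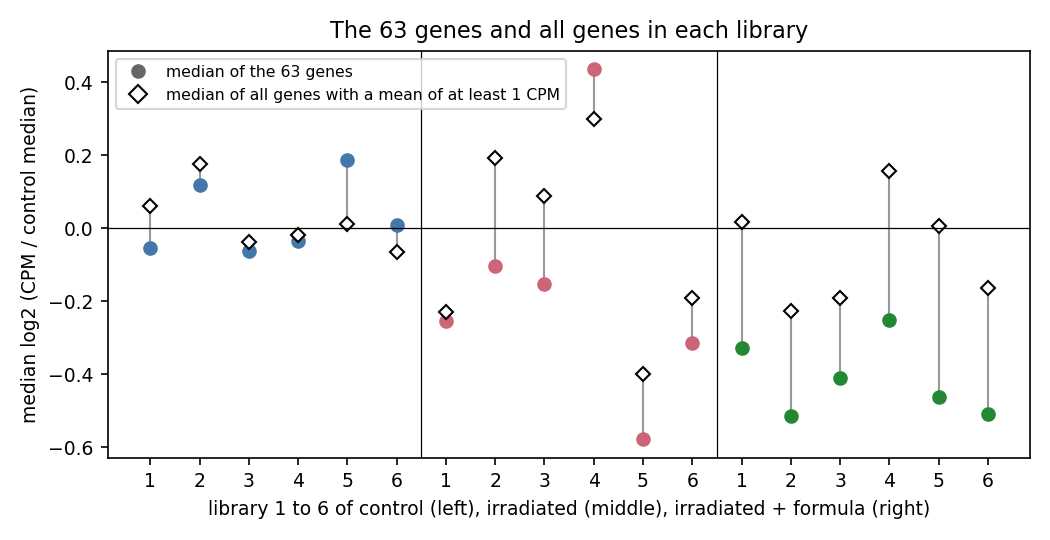
Median log2 of CPM over the control median in each library for the 63 genes (filled circles) and for all genes that average 1 CPM or more (open diamonds), joined by a line. In irradiated 4 both are above 0 (0.44 and 0.30) and in irradiated 5 both are below (-0.58 and -0.40).

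To ask how the members track Dbp without the difference between groups, each gene's level was related to the Dbp level within groups, as the log2 change per log2 unit of Dbp with group terms in the edgeR fit. Of 16592 genes, 1 had a slope at an adjusted p below 0.05 (0.00603%), and it was a member, ENSRNOG00000042717. Its slope was 1.21 (SE 0.17, edgeR adjusted p = 0.0147), where a slope of 1 would be a change in step with Dbp. In controls its highest and lowest values were in control 6 (36.6 CPM) and control 2 (5.11 CPM), the libraries with the highest and lowest Dbp (238 and 71.2 CPM). Among irradiated libraries both genes were highest in irradiated 1 and lowest in irradiated 6. With formula the order differed: its lowest value was in formula 4 (0.535 CPM), which had the highest Dbp (14.2 CPM). Its highest was in formula 6 (1.52 CPM), where Dbp was 13.5 CPM. In the 6 irradiated libraries alone the slope was 1.29 (SE 0.24, edgeR adjusted p = 0.99998).

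The call rested on single libraries although the slope did not. Leaving out 1 library at a time gave slopes of 1.06 to 1.28, but the adjusted p rose past 0.05 without control 2 (0.0696), control 6 (0.291), formula 6 (0.105), irradiated 1 (0.562), irradiated 5 (0.0862) or irradiated 6 (0.150). Without control 2, irradiated 1 and irradiated 4 together the slope was 1.02 (adjusted p = 0.597 with edgeR).

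The other members tracked Dbp weakly or not measurably. ENSRNOG00000046912 had a slope of 0.46 (SE 0.12, edgeR adjusted p = 0.965). Members on chromosomes 19, 18 and 11 had slopes of 0.35 (SE 0.10), 0.54 (SE 0.19) and 0.44 (SE 0.20), and these 5 genes were the members with an unadjusted p below 0.05, all positive (7.94% of the 63, beside 1.17% of all genes with a positive slope at that level). The control and formula libraries in this fit were also used by the rule, so these shares are descriptions. The remaining 58 slopes ran from -0.21 to 1.37, the last with an SE of 1.47, and 36 were positive. In 50 of the 63 genes the slope plus or minus 2 SE lay within 0.5 of 0, which is well under a change in step with Dbp.

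Slopes were positive in 41 of the 63 genes (65.1%), beside 45.5% of all genes, with medians of 0.03 and -0.02. The share depended on the libraries. In the 12 control and formula libraries, whose values the rule used, 48 of 63 members had a positive slope (76.2%, beside 49.4% of all genes). In the 6 irradiated libraries it was 29 of 62 (46.8%, beside 46.1%). In the 4 irradiated libraries other than 1 and 4, a fit added after values were seen, it was 22 of 62 (35.5%, beside 50%). That fit kept irradiated 5, which had the highest mitochondrial share (39.7%). Without control 2, irradiated 1 and irradiated 4 it was 30 of 63 (47.6%, beside 51.1%).

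**Figure D5:**
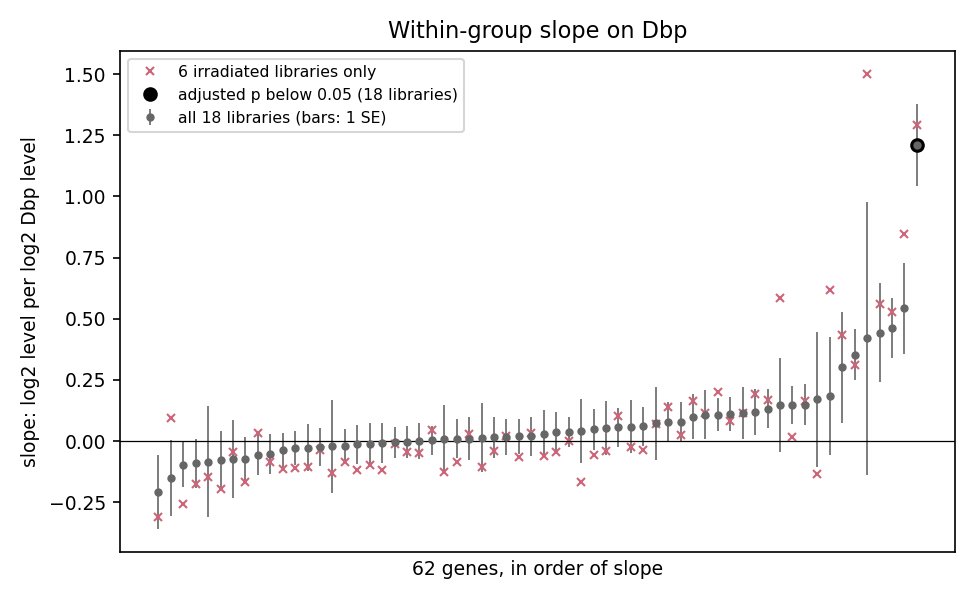
Slope of each gene on the Dbp level within groups (grey points, in order of slope; bars are ± 1 SE) and in the 6 irradiated libraries alone (red crosses) for 62 of the 63 genes, leaving out a chromosome 5 member whose SE was 1.47. ENSRNOG00000042717 stands at the top with 1.21 and most of the others lie near 0.

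Gene models of the members were shorter at the median, a property the rule did not use. The summed exon length had a median of 1630 bases, beside 3041 bases over all genes that average 1 CPM or more, and 37 of the 63 (58.7%) were under 2000 bases, beside 25.9%, with the longest member at 7280 bases. The 24 genes that also met the rule with TMM scaling had a median of 1523 bases. No test was made of this difference, and RNA quality values were not used here.

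Their positions were spread over the genome. The 63 genes lay on 19 chromosomes, with 10 on chromosome 1 (15.9%, beside 12.6% of all genes) and 5 on chromosome 16 (7.94%, beside 2.79%), and 31 were on the forward strand. Only 4 members were within 100 kb of another, as 1 pair on chromosome 16 and 1 on chromosome 1. Exons of 12 members overlapped those of another gene. The counting command in the file header sets no strand option, so strand was not used to assign reads in such overlaps. The effect on the counts of these members was not tested. None of the 3 named members was among the 12.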

How the data were processed

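RNA of 18 libraries was analysed from the deposited raw counts per gene. Per the file headers, the authors counted reads by featureCounts (version 2.1.1), using mRatBN7.2 with Ensembl release 110 and no strand option. The submitters' processing notes also list STAR, SAMtools, fastp and FastQC. Of counts from 1 to 39, 66.9% to 74.6% were even; the header's command counts reads of a pair, so a fragment can count more than once. No per-sample column was left unused (0).

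From these counts, CPM over library totals gave the members. The members and lists were chosen with earlier results of these data known. Tests used edgeR 4.0.16 (R 4.3.3; filterByExpr, TMM, quasi-likelihood, group terms, all 18 libraries, Benjamini-Hochberg over all genes), with DESeq2 1.42.0 and limma 3.58.1 as alternatives. The edgeR fits were also run on simulated data, with group changes and slopes larger than those of most members and no outlying libraries. That run does not show how the fits handle changes as small as most seen here. All 63 members passed filterByExpr. The slope used log2 CPM of Dbp (prior count 2), centred within groups. No 2 libraries looked like copies of 1 library: over 153 pairs the lowest median chi-square was 7.06, beside 0.455 for sampling noise of independent reads. Counting both reads of a pair would raise the second value, by an amount that was not measured.

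Genes to be named were Dbp and members with the lowest edgeR p for formula against control or for a Dbp slope in either direction. So were members of any list, members with the irradiated median nearest control or formula, and those with the widest and narrowest separation. Without symbols only 3 identifiers are printed, picked after values were seen; the rest of the rule is given as counts and ranges. The 9 gene lists, 18 cell type marker lists and promoter motif search could not be run without symbols.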

Additional observations from a re-analysis of the deposited data

Results flagged for a closer look

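The value of ENSRNOG00000042717 in control 6, 36.605 CPM, stood far from the other 5 controls, which ran from 5.11 to 14.98 CPM. Its gap to the next control was 0.687 of the range of the group, above the 0.625 that marks an outlier among 6 libraries. Dbp was also highest in control 6, at 238 CPM. This was the only such value in 12 checks of the 4 named genes. Over all members, 43 of 189 checks found a library that far out, of which 19 were the highest irradiated value in irradiated 4 and 9 the highest control value in control 2. About 5% of groups would give such a library by chance.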

How the results depend on the processing

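The number of genes meeting the rule was 123 without control 2, irradiated 1 and irradiated 4, and 70 to 285 without 1 library at a time, where fewer libraries make the rule easier to meet. Formula against control gave 2 calls with edgeR, 47 with DESeq2, 499 with limma-voom and quality weights, 6 from the 12 libraries compared, 3 with library totals only, 7 without those 3 libraries, and 2 to 5 without 1 library at a time (5 without control 2 and 5 without irradiated 4). Formula against irradiated gave 8 with DESeq2. Genes with a Dbp slope numbered 5 with DESeq2, 0 from the control and formula libraries, 0 from the 6 or 4 irradiated libraries, 0 without those 3 libraries, and 0 to 1 without 1 library at a time. Positive slopes fell to 22 in the 4 irradiated libraries, the fit added after values were seen. For ENSRNOG00000055408, irradiated against control ran from -0.22 to 0.059 without 1 library at a time and changed sign to 0.059 without control 2, 0.059 without irradiated 5 and 0.0042 without irradiated 6, and its slope changed sign to 0.093 in 6 and 0.197 in 4 irradiated libraries. The cause of these changes was not tested.

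The libraries of a number are not said to be paired. With the replicate number as a block, formula against control gave 1 call, the Dbp slope 0 and 45 positive slopes, and the slope of ENSRNOG00000042717 was 1.22 (edgeR adjusted p = 0.655). Of 18 pairs sharing a number, 5 had deviations correlated above 0.1 (range -0.52 to 0.64), and 4 libraries correlated best with their own number.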
